A study of Mus musculus with 4 samples.

Results

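Collagens are trimeric proteins of the extracellular matrix, each built from α chains that separate genes encode. The chains described here were found by name, as every gene in the count table whose symbol is Col, a type number, the letter a and a chain number, and the rule found 44 of the 49315 genes. Of these, 11 encode fibrillar chains (types 1, 2, 3, 5, 11, 24 and 27), 8 encode chains of basement membranes (types 4, 15 and 18), 6 encode type 6 chains of beaded filaments and 19 encode chains of other types. The study examined type 2 innate lymphoid cells (ILC2s), lymphocytes without antigen receptors that answer epithelial alarm signals, in lung fibrosis of mice lacking *Hps1*, a model of Hermansky-Pudlak syndrome, an inherited disorder of lysosome-related organelles that can bring lung fibrosis. Cells depleted of other lineages and positive for Thy1.2, ICOS and T1/ST2 were sorted from mouse lungs, kept in culture with IL-2, and their RNA was sequenced in 4 libraries, 1 for each group. PBS-WT came from wild-type mice given PBS, PBS-HPS1 from *Hps1*-/- mice given PBS, BLEO-WT from wild-type mice given bleomycin, an agent that injures the lung, and BLEO-HPS1 from *Hps1*-/- mice given bleomycin. The mice were C57BL/6, and in the intraperitoneal model of the study mice 10 weeks old received PBS or 25 U/kg of bleomycin daily for 6 days and were killed on day 12. The sources used here give that schedule for the model and do not tie it by name to the sequenced cells, and the number of mice behind a library is not given in them. RNA came from 22405 cells in PBS-WT and 38873 in PBS-HPS1, then 84166 in BLEO-WT and 128647 in BLEO-HPS1, so the number of cells differed between all 4 groups.

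The reads counted on genes came to 72513619 in PBS-WT and 77703133 in PBS-HPS1, then 87638154 in BLEO-WT and 77428740 in BLEO-HPS1. Levels are given as CPM, counts divided by the scaled size of each library in megareads, and 3 reads corresponded to 0.0385, 0.0303, 0.0383 and 0.0475 CPM in these libraries. With 1 library per group no difference has a replicate check, and no p-value is given. The 95% intervals are exact Clopper-Pearson intervals, and since PCR copies of a read are no independent molecules, they cover counting error only. A gene was tested when it reached 1 CPM in at least 1 library, and called when its log2 ratio between a pair of libraries was at least 1 in size, which is 2-fold. Of the 44 chains, 31 were tested, and 13 stayed under 1 CPM in every library.

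The labels were first set against the genes they concern. *Hps1*, the disrupted gene, was at 38.3 CPM in PBS-WT and 16.6 in PBS-HPS1, and with bleomycin 48.4 in BLEO-WT and 21.3 in BLEO-HPS1, so it was lower in both *Hps1*-/- libraries and was not at 0. Among ILC2 markers, *Thy1*, which encodes the sort marker Thy1.2, was at 306, 206, 224 and 551 CPM in that order, highest in BLEO-HPS1. The genes of the other sort markers were lowest in BLEO-HPS1, with *Icos* at 79.9, 77.5, 51.4 and 32.1 CPM and *Il1rl1*, for T1/ST2, at 40.9, 39.9, 37.3 and 23.8 CPM. Corrected for GC content and length as described below, their log2 ratios of BLEO-HPS1 over BLEO-WT were -0.20 for *Icos* and 0.033 for *Il1rl1*, so *Il1rl1* was no longer lower. That of *Thy1* was 0.72 when corrected, in place of 1.30. *Gata3*, the transcription factor that defines the lineage, was at 38.4, 39.1, 25.1 and 26.9 CPM, and *Il7r*, the receptor chain for IL-7, was at 180, 205, 149 and 76.9 CPM, lowest in BLEO-HPS1. The defining marker *Ptgdr2*, which encodes CRTH2, stayed under 1 CPM in every library. Markers of other cell types were also counted, and their values are given after those of the collagens.

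Fibrillar collagens pack side by side into the fibers that give connective tissue its tensile strength, and their build-up is the hallmark of lung fibrosis. Type 4 collagen forms the sheet-like network of basement membranes beneath epithelium and around vessels, and types 15 and 18 lie at its margin. Type 6 forms beaded filaments between the fibers and the basement membrane, while the remaining types sit on fibrils, anchor epithelium or cross the cell membrane. Fibroblasts and other mesenchymal cells are the best known source of fibrillar chains, and epithelial and endothelial cells make basement membrane chains.

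Reads on the 44 chains together made up 0.0508% of the reads of PBS-WT (95% interval 0.0503 to 0.0513), 0.0884% in PBS-HPS1 (0.0878 to 0.0891), 0.1% in BLEO-WT (0.0998 to 0.101) and 0.328% in BLEO-HPS1 (0.326 to 0.329). In CPM the sum was 473, 694, 1123.2 and 4016.8. Collagen RNA was therefore lowest in PBS-WT and highest in BLEO-HPS1. The fibrillar and basement membrane shares of it changed along the same order. Fibrillar chains took 35.8% of the collagen reads in PBS-WT (35.3 to 36.3) and 41.3% in PBS-HPS1 (41.0 to 41.7), and with bleomycin 49.7% in BLEO-WT (49.4 to 50) and 67.7% in BLEO-HPS1 (67.6 to 67.9). Basement membrane chains took 46.0% (45.4 to 46.5), 38.5% (38.1 to 38.8), 30.1% (29.8 to 30.4) and 16.8% (16.6 to 16.9). Basement membrane chains were thus the largest class in PBS-WT, and fibrillar chains were the largest in the other libraries. This rested on *Col1a1*, *Col1a2* and *Col3a1*, without which basement membrane chains were the largest class in every library, with 64.3%, 58.9%, 53.6% and 45.2% beside fibrillar shares of 10.1%, 10.2%, 10.5% and 13.1%. Beaded filament chains held 9.71%, 11.3%, 12.2% and 11.3% of the collagen reads, and the other types held 8.51%, 8.92%, 8% and 4.16%. The summed CPM of the basement membrane chains still was not lower in any library than in PBS-WT, at 217, 267, 338 and 674, while that of the fibrillar chains was 169, 287, 558 and 2721.1. In bulk RNA of this kind, more cells of a type and more RNA per cell cannot be told apart.

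**Figure D1:**
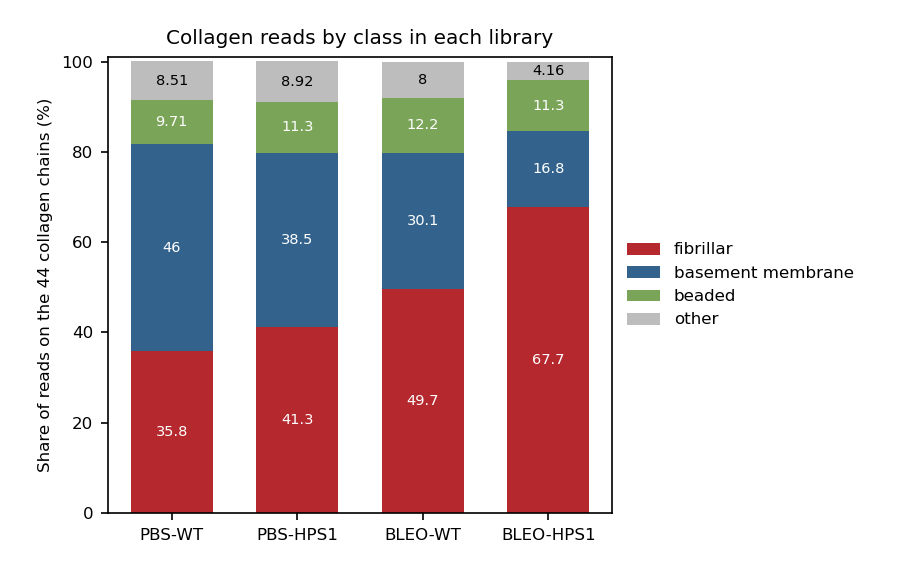
Share of the reads on the 44 collagen chains (vertical axis, percent) held by fibrillar, basement membrane, beaded and other chains in each of the 4 libraries; each stacked bar is 1 library. The fibrillar part runs from 35.8% in PBS-WT to 67.7% in BLEO-HPS1, and the basement membrane part from 46.0% to 16.8%.

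A rising level from PBS-WT through PBS-HPS1 and BLEO-WT to BLEO-HPS1 was seen for 15 of the 31 tested chains (48.4%), against 709 of 14840 tested genes (4.78%). With total counts in place of scaled library sizes it was seen for 11 chains (35.5%) and 672 genes (4.53%), and with DESeq2 size factors for 15 chains (48.4%) and 808 genes (5.44%). The 15 chains held 6 of 8 fibrillar chains, 3 of 3 beaded filament chains, 3 of 8 basement membrane chains and 3 of 12 chains of other types. This order is also that of the number of cells sequenced, and the part of cell number in it was not tested. BLEO-HPS1 was the highest library for 24 of the 31 chains, and for 41.4% of all tested genes. The other 7 chains were highest in PBS-HPS1, as were 2419 of the 14840 tested genes. None of the 31 chains was highest in PBS-WT or BLEO-WT, where 3456 and 2828 of the tested genes were highest. With total counts, 20 chains and 29.9% of tested genes were highest in BLEO-HPS1.

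**Figure D2:**
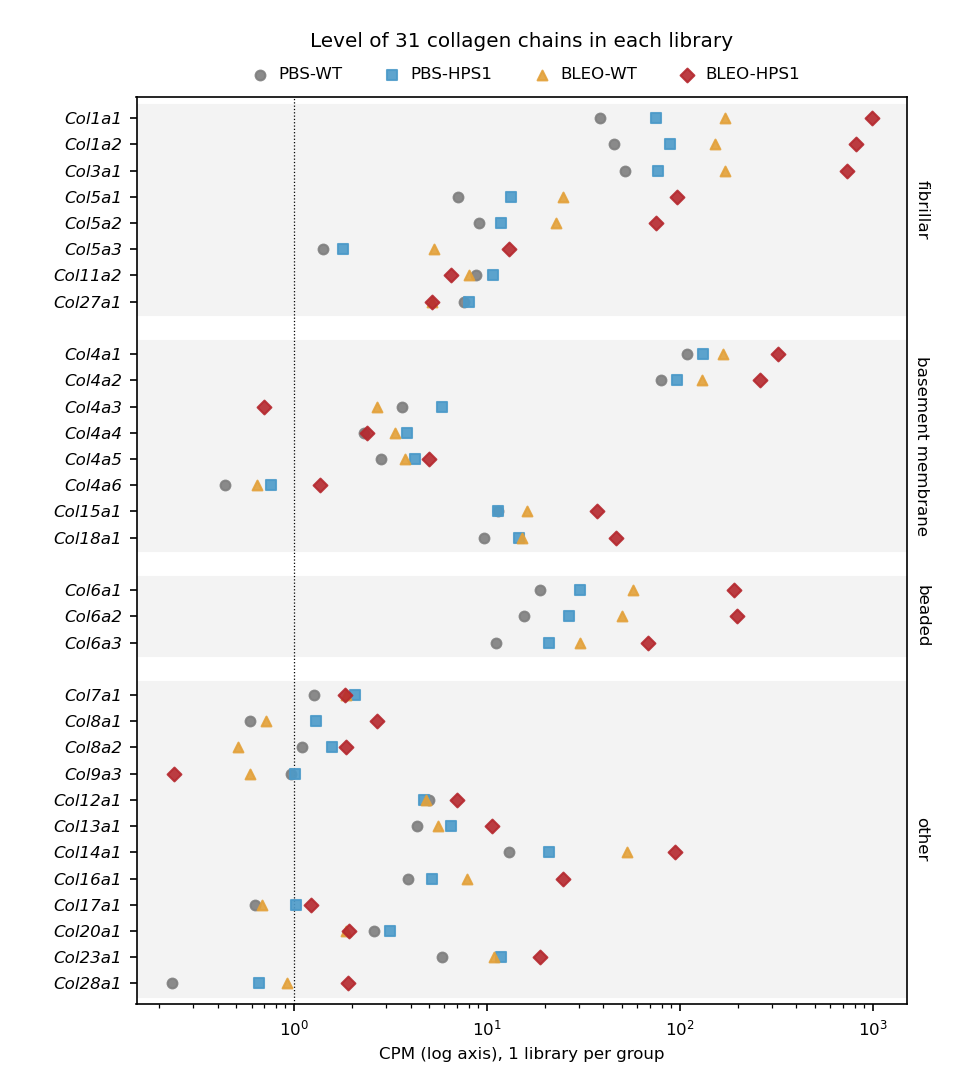
CPM (horizontal log axis) of the 31 tested collagen chains, grouped by class, in the 4 libraries; each point is 1 library and the dotted line marks 1 CPM. *Col1a1* runs from 38.2 to 982 CPM and *Col4a3* is lowest in BLEO-HPS1, at 0.696 CPM.

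The comparison of BLEO-HPS1 with BLEO-WT asks how the genotype bore on the cells after injury. Most fibrillar chains and the tested beaded filament chains were higher in BLEO-HPS1, with the type 11 and type 27 chains as exceptions, and basement membrane chains by less. Of the 31 tested chains, 16 were called higher, against 6.72% of all tested genes, and 2 were called lower, against 10.3%. By class, the chains called higher were 6 of 8 fibrillar, 3 of 8 basement membrane, 3 of 3 beaded filament and 4 of 12 others. Of these, *Col4a6* and *Col28a1* reached 1 CPM in BLEO-HPS1 alone, so they were tested only through the library in which they were high. The median log2 ratio was 1.84 for fibrillar, 0.97 for basement membrane, 1.73 for beaded filament and 0.82 for other chains, where the median of all tested genes was -0.043. Of the 31 chains, 26 had a ratio above 0 and 5 below. The chains called lower were *Col4a3* of the basement membrane and *Col9a3* of the fibril-associated group.

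Without injury, PBS-HPS1 was set against PBS-WT. Of the 31 chains, 3 were called higher, against 2.16% of all tested genes, and 0 were called lower, against 3.11%. These 3 were *Col8a1*, *Col23a1* and *Col28a1*, none of them fibrillar, with log2 ratios of 1.11, 1.03 and 1.41. *Col28a1* was under 1 CPM in both PBS libraries, at 0.231 and 0.656, and was tested only through BLEO-HPS1. That no fibrillar chain passed depended on the scaling, since *Col1a1* and *Col1a2* were at 1.01 and 1 with DESeq2 size factors, and at 1.22 and 1.22, with *Col5a1* at 1.16, with total counts. With the GC and length correction 2 chains were called, as *Col23a1* was at 0.89, and 2 with a prior count of 10. The chains as a group still lay above other genes, since 29 of the 31 ratios were above 0 and the class medians were 0.48 for fibrillar, 0.59 for basement membrane, 0.77 for beaded filament and 0.63 for other chains. The median of all tested genes was -0.19 here. The basement membrane chains had a smaller median than the fibrillar chains with bleomycin and a larger one with PBS, and that difference was not tested.

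Bleomycin was compared with PBS in each genotype, and these comparisons share libraries with those above. In wild type, 12 of the 31 chains were called higher in BLEO-WT than in PBS-WT, against 5.28% of all tested genes, and 1 was called lower, against 8.22%. The 12 were 6 fibrillar, 3 beaded filament and 3 other chains, and 0 of the 8 basement membrane chains was among them. *Col28a1*, among the 12, was under 1 CPM in both libraries, at 0.231 in PBS-WT and 0.918 in BLEO-WT. Class medians were 1.73 for fibrillar, 0.53 for basement membrane, 1.60 for beaded filament and 0.31 for other chains, beside 0.094 for all tested genes. In *Hps1*-/- mice, 17 chains were called higher in BLEO-HPS1 than in PBS-HPS1, against 26.2% of all tested genes, and 2 were called lower, against 19.6%. Of these, *Col28a1*, called higher, reached 1 CPM in BLEO-HPS1 alone, and *Col9a3*, called lower, in PBS-HPS1 alone. Each was thus tested only through the library in which it was high. Class medians were 2.85 for fibrillar, 1.06 for basement membrane and 2.65 for beaded filament chains, beside 0.25 for all tested genes. Other chains had a median of 0.62, which turned to -0.023 with total counts and to -0.16 with no filter.

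Set side by side chain by chain, the bleomycin ratio in *Hps1*-/- mice minus that in wild type had a median of 1.19 for fibrillar, 1.05 for beaded filament, 0.49 for basement membrane and 0.15 for other chains, and of 0.15 for all tested genes. With total counts this median was 0.11 for basement membrane and -0.23 for other chains. Of the 31 chains, 11 differed by at least 1 upward, against 16.3% of all tested genes, and 3 downward, against 11.2%. These differences have no replicate check.

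The chains of types 1 and 3 were the most abundant of the fibrillar class. *Col1a1* (ENSMUSG00000001506, chr11:94936224-94953042 of GRCm38), the α1 chain of the fiber of bone, tendon and scar, was at 38.2 CPM in PBS-WT and 75.1 in PBS-HPS1, then 170 in BLEO-WT and 982 in BLEO-HPS1. *Col1a2* (ENSMUSG00000029661, chr6:4504814-4541544), its partner, was at 45.3, 88.8, 152 and 813 CPM. *Col3a1* (ENSMUSG00000026043, chr1:45311538-45349706), whose chain forms thin fibrils with type 1 in lung and vessel walls, was at 51.6, 76.6, 170 and 731 CPM. All 3 genes were lowest in PBS-WT and highest in BLEO-HPS1, and between the PBS libraries *Col3a1* differed less than the type 1 chains, with a log2 ratio of 0.57 (0.51 to 0.62) beside 0.98 (0.92 to 1.04) for *Col1a1* and 0.97 (0.91 to 1.03) for *Col1a2*. Bleomycin ratios were larger in *Hps1*-/- mice than in wild type for these genes, by 1.55, 1.45 and 1.53 on the log2 scale for *Col1a1*, *Col1a2* and *Col3a1*. Together they held 28.6% of collagen reads in PBS-WT and 34.7% in PBS-HPS1, and with bleomycin 43.8% in BLEO-WT and 62.9% in BLEO-HPS1.

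Type 5 collagen lies inside type 1 fibrils and limits their width, and its chains were lower in level but followed the same order. *Col5a1* was at 7.02 CPM in PBS-WT and 13.3 in PBS-HPS1, then 24.6 in BLEO-WT and 96.0 in BLEO-HPS1. *Col5a2* was at 9.03, 11.8, 22.7 and 74.8 CPM, with a genotype ratio after bleomycin (log2) of 1.72 (1.64 to 1.80) and of 0.39 (0.25 to 0.52) between the PBS libraries. The least abundant type 5 chain, *Col5a3*, was at 1.40, 1.79, 5.28 and 13 CPM, with ratios of 1.29 (1.13 to 1.47) and 0.35 (0.002 to 0.71). All 3 type 5 chains were thus highest in BLEO-HPS1 and next highest in BLEO-WT. Type 11 and type 27 are fibrillar collagens known from cartilage, and their tested chains did not follow this order. *Col11a2* was at 8.71, 10.7, 8.03 and 6.49 CPM, highest in PBS-HPS1 and lowest in BLEO-HPS1. *Col27a1* was between 5.18 CPM in BLEO-WT and 8.06 in PBS-HPS1, with a genotype ratio after bleomycin (log2) of 0.0039 (-0.21 to 0.22) and a bleomycin ratio of -0.54 (-0.73 to -0.36) in wild type. Within the fibrillar class, then, the chains of types 1, 3 and 5 were high after bleomycin, and those of types 11 and 27 were not.

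Type 6 chains assemble into the beaded filaments that surround cells. *Col6a1* was at 18.7 CPM in PBS-WT and 30.1 in PBS-HPS1, and with bleomycin 56.8 in BLEO-WT and 189 in BLEO-HPS1. *Col6a2* was at 15.5, 26.6, 49.8 and 197 CPM. *Col6a3*, which encodes the longest chain of the filament, was at 11.1, 20.8, 30.1 and 68.4 CPM. The 3 genes rose in the same order, but *Col6a3* had the smallest genotype ratio after bleomycin, 1.18 (1.11 to 1.26), beside 1.73 (1.68 to 1.78) for *Col6a1* and 1.98 (1.93 to 2.04) for *Col6a2*. With the GC and length correction *Col6a1* had the smallest, 1.42, beside 1.56 for *Col6a3* and 1.78 for *Col6a2*. The bleomycin ratio of *Col6a3* was 1.72 (1.64 to 1.79) in *Hps1*-/- mice and 1.44 (1.33 to 1.56) in wild type, and the order of these values turned with total counts, at 1.07 and 1.18, while they were 2.66 and 1.69 when corrected. The later type 6 genes *Col6a4*, *Col6a5* and *Col6a6* stayed between 7 and 30 reads in every library and were not tested.

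In the basement membrane class, the chains of the common type 4 network were the most abundant. *Col4a1* (ENSMUSG00000031502, chr8:11198423-11312826) was at 108 CPM in PBS-WT and 131 in PBS-HPS1, then 166 in BLEO-WT and 321 in BLEO-HPS1. *Col4a2* (ENSMUSG00000031503, chr8:11312805-11449287) was at 79.0, 95.8, 130 and 260 CPM. Both were highest in BLEO-HPS1, with log2 ratios to BLEO-WT of 0.95 (0.92 to 0.98) and 0.99 (0.96 to 1.03), just under the 2-fold threshold, and of 1.01 and 1.06, past it, with DESeq2 size factors. Between the PBS libraries their ratios were 0.27 (0.23 to 0.31) and 0.28 (0.23 to 0.32), smaller than those of the type 1 chains. The PBS ratios of *Col4a1* and *Col4a2* were 0.083 and 0.082 with the GC and length correction, and 0.52 and 0.52 with total counts. Together these genes held 39.6% of collagen reads in PBS-WT and 14.5% in BLEO-HPS1.

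Alternative type 4 chains form the basement membranes of kidney glomeruli and lung alveoli, and *Col4a3* among them did not follow *Col4a1* and *Col4a2*, while *Col4a4* did not before the GC and length correction. *Col4a3* was highest in PBS-HPS1 at 5.85 CPM, with 3.63 in PBS-WT and 2.69 in BLEO-WT, and lowest in BLEO-HPS1 at 0.696. Its genotype ratio (log2) was -1.91 with bleomycin (-2.45 to -1.48) and 0.68 with PBS (0.48 to 0.90), which are of opposite sign. *Col4a4* was highest in PBS-HPS1 at 3.84 CPM and lowest in PBS-WT at 2.31. Its bleomycin ratio was 0.53 (0.25 to 0.82) in wild type and -0.69 (-0.98 to -0.42) in *Hps1*-/- mice, but 0.93 and 0.59 with the GC and length correction, so the opposite signs did not hold for this chain. *Col4a5*, the third chain of that trimer, was highest in BLEO-HPS1 at 5 CPM and lowest in PBS-WT at 2.81. With total counts its log2 ratio of BLEO-HPS1 to PBS-HPS1 was -0.39 in place of 0.25, so PBS-HPS1 was then highest. *Col4a6*, found in smooth muscle basement membranes, was highest in BLEO-HPS1 at 1.36 CPM and lowest in PBS-WT at 0.436. *Col4a3* was thus the only type 4 chain called lower in BLEO-HPS1 than in BLEO-WT, resting on 44 reads against 211.

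Types 15 and 18 are proteoglycan-like collagens of the basement membrane margin, and type 18 is the source of the fragment endostatin. *Col15a1* was at 11.4 CPM in PBS-WT and 11.3 in PBS-HPS1, and with bleomycin 16 in BLEO-WT and 37.1 in BLEO-HPS1. *Col18a1* was at 9.58, 14.6, 15.1 and 46.5 CPM. Both were highest in BLEO-HPS1, with log2 ratios to BLEO-WT of 1.21 (1.12 to 1.32) and 1.62 (1.52 to 1.72). With scaled library sizes only *Col18a1* differed between the PBS libraries beyond counting error, by 0.61 (0.48 to 0.74) against -0.0069 (-0.14 to 0.12) for *Col15a1*. With total counts the *Col15a1* ratio was 0.24, so this contrast depended on the scaling.

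Among the other types, the fibril-associated chain *Col14a1*, which binds the surface of type 1 fibrils, was the most abundant. It was at 13 CPM in PBS-WT and 20.8 in PBS-HPS1, then 53.1 in BLEO-WT and 93.9 in BLEO-HPS1. This chain was high in both bleomycin libraries, with bleomycin ratios of 2.03 (1.93 to 2.13) in wild type and 2.18 (2.10 to 2.25) in *Hps1*-/- mice, so its bleomycin ratio differed by 0.15 between genotypes where that of *Col1a1* differed by 1.55. With total counts these differences were -0.23 and 1.18, and with the GC and length correction they were nearer, 0.69 and 1.45. *Col16a1*, another fibril-associated chain, was at 3.87, 5.18, 7.87 and 24.6 CPM, with bleomycin ratios of 1.02 (0.82 to 1.23) and 2.24 (2.10 to 2.39). The transmembrane chain *Col23a1* was at 5.80, 11.8, 10.8 and 18.8 CPM, and its genotype ratio was 1.03 (0.87 to 1.19) with PBS and 0.80 (0.67 to 0.93) with bleomycin. *Col13a1*, also a transmembrane chain, was at 4.32, 6.47, 5.55 and 10.6 CPM. Both transmembrane chains were lowest in PBS-WT and highest in BLEO-HPS1, and PBS-HPS1 exceeded BLEO-WT for both.

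The remaining tested chains stayed between 1 and 10 CPM in their highest library. *Col12a1*, a fibril-associated chain, was highest in BLEO-HPS1 at 6.96 CPM and lowest in PBS-HPS1 at 4.69. The log2 ratio between these libraries was 0.57, and it turned to -0.071 with total counts and to 2.12 with the GC and length correction. *Col20a1*, of the same group, was highest in PBS-HPS1 at 3.14 CPM and lowest in BLEO-WT at 1.86. *Col9a3*, a chain of the type 9 collagen that coats cartilage fibrils, was highest in PBS-HPS1 at 1.01 CPM and lowest in BLEO-HPS1 at 0.237, with a log2 ratio to BLEO-WT of -1.22 (-2.25 to -0.44) from 15 and 46 reads. The short network-forming chains *Col8a1* and *Col8a2*, known from vessel walls and the cornea, were both highest in BLEO-HPS1, but for *Col8a2* the log2 ratio to PBS-HPS1 was 0.24, and -0.25 with the GC and length correction and -0.39 with total counts. *Col8a1* was lowest in PBS-WT, at 0.590 CPM against 2.69. *Col8a2* was lowest in BLEO-WT, at 0.510 CPM against 1.85, and was the 1 chain called lower in BLEO-WT than in PBS-WT, with a log2 ratio of -1.06 (-1.68 to -0.54). *Col7a1*, which forms the anchoring fibrils beneath epithelium, was highest in PBS-HPS1 at 2.06 CPM and lowest in PBS-WT at 1.27. With the GC and length correction its log2 ratio to PBS-WT was 0.37 for PBS-HPS1 and 0.55 for BLEO-WT. PBS-HPS1 was then no longer its highest library. *Col17a1*, a transmembrane chain of hemidesmosomes, was highest in BLEO-HPS1 at 1.22 CPM and lowest in PBS-WT at 0.629. Its log2 ratio of BLEO-HPS1 to PBS-HPS1 was 0.25 (-0.19 to 0.70), but 0.00074 with the GC and length correction and -0.38 with total counts. *Col28a1* was highest in BLEO-HPS1 at 1.90 CPM and lowest in PBS-WT at 0.231. At this level the intervals were wide, and that of the PBS ratio of *Col28a1* ran from 0.74 to 2.35.

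The 13 chains under 1 CPM in every library rested on few reads. *Col2a1*, the chain of cartilage fibrils, had 0 to 5 reads and *Col10a1*, made by hypertrophic chondrocytes, had 3 to 11. *Col9a1* had 2 to 32 reads, *Col9a2* 6 to 21, *Col24a1* 4 to 14, *Col22a1* 6 to 23 and *Col26a1* 4 to 31. *Col6a4* had 7 to 30 reads, *Col6a5* 12 to 22 and *Col6a6* 7 to 22. *Col11a1* had 7 to 50 reads, *Col19a1* 0 to 47 and *Col25a1* 2 to 51. For *Col11a1*, *Col19a1* and *Col25a1* the highest count was in PBS-HPS1 and the lowest in BLEO-HPS1. *Col2a1* and *Col10a1*, the cartilage chains, were therefore at or near the limit of counting.

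**Figure D3:**
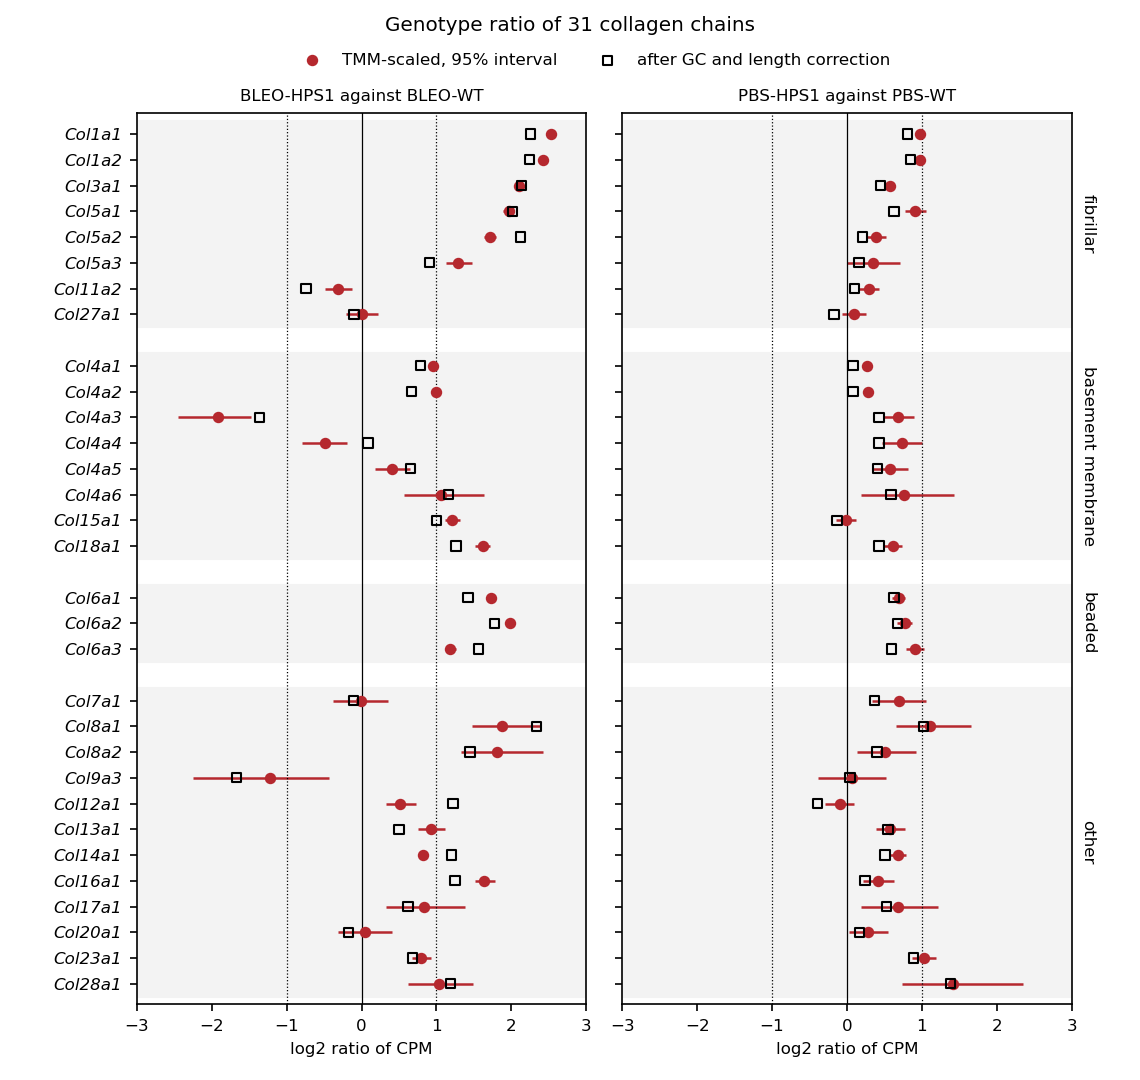
Log2 ratio of CPM (horizontal axis) of the 31 tested chains with bleomycin (BLEO-HPS1 over BLEO-WT, left) and with PBS (PBS-HPS1 over PBS-WT, right), with filled points for scaled values, lines for their 95% exact intervals (counting error only), open squares for values corrected for GC content and length, and dotted lines at 2-fold. With bleomycin the fibrillar median was 1.84, and with PBS it was 0.48.

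Ratios between these libraries depended on the base composition and length of the transcript. Across 11133 genes, Spearman's rho of the log2 ratio with GC content was 0.609 for the genotype with bleomycin and -0.0726 for it with PBS, 0.602 for bleomycin in *Hps1*-/- mice and 0.485 for it in wild type, as a description over genes that are not independent. With transcript length, rho was -0.493 for the genotype with bleomycin and 0.429 with PBS, and -0.517 and -0.256 for bleomycin in *Hps1*-/- mice and wild type. Collagen transcripts lie on the GC-rich side, with a median of 56.4% over the 31 tested chains and 49.8% over 14813 tested genes, and they are long, with a median of 5.93 kb beside 3.23 kb. After a loess correction for both, the median genotype ratio with bleomycin was 2.07 for fibrillar, 0.73 for basement membrane, 1.56 for beaded filament and 0.94 for other chains, and 16 chains were called higher and 2 lower. These were not all the same chains, since *Col5a3*, from 1.29 to 0.91, and *Col15a1*, from 1.21 to just under 1, moved below the threshold, and *Col12a1* and *Col14a1* were called instead. No share of all tested genes called after this correction is given here. The corrected counts of chains, and those of the gene lists below, therefore stand without a background share. In PBS the corrected medians were 0.33, 0.42, 0.63 and 0.46 in the same order of classes. The corrected ratio of *Col4a3* was -1.36, still past 2-fold, while that of *Col4a4* was 0.088 in place of -0.49. The corrected *Col6a3* ratio was 1.56 in place of 1.18, and that of *Col1a1* was 2.26. The class order seen with bleomycin was thus kept for the fibrillar, beaded filament and basement membrane chains.

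Levels of different chains can be compared per length, as CPM per kb of transcript. In PBS-WT *Col4a1* led at 16.3 CPM per kb, ahead of *Col4a2* at 12.2, *Col3a1* at 9.28, *Col1a2* at 8.48 and *Col1a1* at 6.43. In BLEO-HPS1 *Col1a1* led at 166 CPM per kb, ahead of *Col1a2* at 152, *Col3a1* at 131, *Col4a1* at 48.6 and *Col6a1* at 46.1. The leading chain per length was thus a basement membrane chain in PBS-WT and a fibrillar chain in BLEO-HPS1.

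Type 1 collagen is a trimer with more α1 than α2 chains, so the ratio of its messages was compared within each library, where library scaling plays no part. Reads per kb on *Col1a1* relative to *Col1a2* were 0.759 in PBS-WT (0.723 to 0.797) and 0.763 in PBS-HPS1 (0.739 to 0.787), and with bleomycin 1.01 in BLEO-WT (0.985 to 1.03) and 1.09 in BLEO-HPS1 (1.08 to 1.10). The ratio was alike in both PBS libraries and higher in both bleomycin libraries. Its absolute value rests on the length assumed, and with the merged exons of each gene it was 1.59, 1.60, 2.12 and 2.29, above 1 in every library. *Col4a1* relative to *Col4a2* moved the opposite way and by less, from 1.33 (1.29 to 1.38) in PBS-WT and 1.33 (1.30 to 1.37) in PBS-HPS1 to 1.24 (1.21 to 1.28) in BLEO-WT and 1.21 (1.18 to 1.23) in BLEO-HPS1. *Col5a1* relative to *Col5a2* was 0.612 (0.547 to 0.686), 0.884 (0.816 to 0.957), 0.851 (0.797 to 0.908) and 1.01 (0.974 to 1.05), lowest in PBS-WT and highest in BLEO-HPS1. *Col6a1* relative to *Col6a2* was 1.44, 1.36, 1.37 and 1.15, and *Col6a3* relative to *Col6a1* was 0.240, 0.280, 0.215 and 0.147. BLEO-HPS1 thus had the lowest of both type 6 ratios before correction. The 2 chains of a pair can differ in GC content, and with the correction some of these orders turned. Corrected genotype ratios with bleomycin were 1.56 for *Col6a3* and 1.42 for *Col6a1*, 0.79 for *Col4a1* and 0.67 for *Col4a2*, and 2.02 for *Col5a1* and 2.12 for *Col5a2*, so in each of these pairs the chain with the larger ratio changed. For *Col1a1* and *Col1a2* the corrected bleomycin ratios were 1.96 and 1.57 in wild type and 3.42 and 2.97 in *Hps1*-/- mice, still larger for *Col1a1*.

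Several chains lie next to each other in the genome (GENCODE M21 on GRCm38). *Col4a1* and *Col4a2* lie head to head on chromosome 8 with 22 bases of overlap, and their ratios differed by little in every comparison, at 0.95 and 0.99 for the genotype with bleomycin and 0.62 and 0.72 for bleomycin in wild type. *Col4a4* and *Col4a3* lie head to head on chromosome 1, 71 bases apart (chr1:82448423-82586849 and chr1:82586921-82722059). This pair had like ratios with PBS, 0.73 and 0.68, and unlike ones for BLEO-HPS1 against BLEO-WT, -0.49 and -1.91. *Col4a6* and *Col4a5* lie head to head on chromosome X, 1308 bases apart, with ratios of 1.06 and 0.41 in that comparison. *Col3a1* and *Col5a2* lie tail to tail on chromosome 1, 24614 bases apart, with ratios of 2.10 and 1.72. *Col6a2* and *Col6a1* lie on the same strand of chromosome 10, 85161 bases apart, with ratios of 1.98 and 1.73. Whether the counting used the strand of reads is not given in the sources used here, so reads in the overlap of *Col4a1* and *Col4a2* could fall on either gene.

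Promoter sequences from RefSeq (GRCm38.p6) matched 35 of the 44 chains and 25 of the 31 tested ones, in 38 windows. The 250 bases before each start were searched on both strands for the motif CCAAT of the box of that name, for TATAAA of the TATA box and for GGGCGG, which Sp1 binds, and no motif here contains another. GGGCGG was in 22 of the 38 collagen windows (57.9%) and in 32.7% of 32851 windows of all genes. CCAAT was in 13 (34.2%) beside 33.8% of all windows, and TATAAA was in 5 (13.2%) beside 12.4%. Among the tested fibrillar chains, 5 of 6 windows held GGGCGG, while *Col3a1* held none, although the levels of *Col3a1* and *Col5a1* rose over the libraries in the same order. Stretches before a RefSeq start of 3 fibrillar genes that were high in BLEO-HPS1 are shown to compare their composition, with capitals for these motifs on either strand, and outside annotated exons. The *Col1a2* stretch lies inside the gene span given above, before a RefSeq start downstream of the GENCODE one.
Col3a1, chr1:45311288-45311537, plus strand, 35.2% GC: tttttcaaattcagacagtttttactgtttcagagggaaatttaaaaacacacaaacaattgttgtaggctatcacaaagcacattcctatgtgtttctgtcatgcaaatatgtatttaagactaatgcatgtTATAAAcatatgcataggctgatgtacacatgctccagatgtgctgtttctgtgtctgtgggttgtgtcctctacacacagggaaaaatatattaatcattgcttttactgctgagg
Col5a1, chr2:27886175-27886424, plus strand, 76.4% GC: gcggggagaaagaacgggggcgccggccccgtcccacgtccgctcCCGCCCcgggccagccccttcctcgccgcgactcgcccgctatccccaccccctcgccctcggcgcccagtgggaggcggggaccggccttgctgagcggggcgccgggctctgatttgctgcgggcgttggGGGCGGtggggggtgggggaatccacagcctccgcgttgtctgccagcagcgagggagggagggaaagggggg
Col1a2, chr6:4505370-4505492, plus strand, 59.3% GC: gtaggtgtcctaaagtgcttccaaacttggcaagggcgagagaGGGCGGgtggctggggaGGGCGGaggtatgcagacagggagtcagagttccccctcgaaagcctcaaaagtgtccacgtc
The *Col3a1* stretch holds TATAAA once and is poor in GC, and those of *Col5a1* and *Col1a2* each hold GGGCGG 2 times, counting its reverse complement. A match describes the letters only. For *Col4a4* and *Col4a3*, whose ratios parted with bleomycin, the bases between the genes are shown on the *Col4a4* strand, where none of the motifs was found.
Col4a4, chr1:82586850-82586920, minus strand, 69.0% GC: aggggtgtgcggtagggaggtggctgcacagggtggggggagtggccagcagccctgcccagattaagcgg

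Collagen chains are hydroxylated, glycosylated and cross-linked before they become fibers, and the genes for these steps were taken from a list of 34, of which 33 were used and 30 tested. Their summed CPM was 1895 in PBS-WT and 1840.7 in PBS-HPS1, then 2605.2 in BLEO-WT and 3780.6 in BLEO-HPS1. In BLEO-HPS1 against BLEO-WT, 12 of the 30 were called higher, against 6.72% of all tested genes, and 1 lower, against 10.3%, with a median of 0.68 (9 and 1 after the GC and length correction). Between the PBS libraries 4 were called higher, against 2.16%, and 0 lower, against 3.11%, with a median of 0.34. *P4hb*, a subunit of prolyl 4-hydroxylase and the most abundant member, was at 435, 349, 698 and 900 CPM, *Tgm2*, a cross-linking transglutaminase, at 419, 485, 421 and 600, and *Colgalt1*, a collagen galactosyltransferase, at 276, 212, 465 and 508. *Serpinh1*, a chaperone of procollagen chosen after its values were seen, was at 34.7, 59.8, 35.2 and 177 CPM, highest in BLEO-HPS1 and next highest in PBS-HPS1. The log2 ratio between these libraries was 1.56, and 0.83 with the GC and length correction. *P4ha3*, *Tll2* and *Adamts3* stayed under 1 CPM in every library.

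Of 12 collagen receptor genes, 11 were tested, with summed CPM of 1385.2, 1253.6, 1380.7 and 830, listed as above. In BLEO-HPS1 against BLEO-WT, 2 were called higher, against 6.72% of all tested genes, and 1 lower, against 10.3%, with a median of -0.24, and with the GC and length correction 3 were called higher and 0 lower, with a median of 0.47. The most abundant were *Mrc1*, a mannose receptor that takes up collagen fragments, at 647, 621, 702 and 266 CPM, *Itgb1*, the β1 integrin chain, at 569, 488, 509 and 341, and the inhibitory receptor gene *Lair1* at 48.1, 31.3, 74.3 and 64.3. *Gp6* stayed under 1 CPM. Of 7 collagen-degrading proteases, 6 were tested, and 1 was called higher and 1 lower in the same comparison, against the same shares, with a median of -0.25. Their summed CPM was 455, 292, 680 and 702, led by *Ctsk* at 175, 160, 251 and 173, *Mmp14* at 32.6, 22.4, 239 and 242 and *Mmp9* at 183, 73.1, 99.9 and 95.6. *Mmp1a* had 0 reads in every library. The genes called higher, named after their values were seen, were the receptors *Mrc2* and *Itga11*, with log2 ratios of 1.88 and 3.28, of which *Itga11* reached 1 CPM in BLEO-HPS1 alone, and the protease *Mmp2*, with 2.18 and a level of 7.34, 12.6, 38 and 172 CPM. Those called lower were the receptor *Mrc1*, at -1.40 (-0.72 corrected), and the protease *Mmp8*, at -1.49, with 55.5, 23.2, 50.6 and 18 CPM.

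Markers of other cells were counted beside the collagens, and their part in the collagen values was not tested. Of 24 fibroblast markers that are not collagens, 22 were tested, and their summed CPM was 2980.5 in PBS-WT and 2448.4 in PBS-HPS1, and with bleomycin 12424.2 in BLEO-WT and 10455.5 in BLEO-HPS1. In BLEO-HPS1 against BLEO-WT, 15 of the 22 were called higher, against 6.72%, and 0 lower, against 10.3%, with a median of 1.44 (1.26 after the GC and length correction). Among the 22, *Cthrc1*, which was called higher, and *Twist1*, which was not called, reached 1 CPM in BLEO-HPS1 alone. Both were thus tested only through the library in which they were high. Between the PBS libraries 5 were called higher, against 2.16%, and 0 lower, against 3.11%, with a median of 0.43. *Fn1*, which macrophages also express, was the most abundant at 1432, 1058.3, 10587.1 and 5995.0 CPM, followed by *Lsp1*, also a leukocyte gene, at 884, 573, 810 and 1354.1, and *Gsn* at 372, 446, 692 and 2045.3. *Fap* and *Twist2* stayed under 1 CPM in every library. Of 11 smooth muscle and pericyte markers, 10 were tested, with summed CPM of 41.1, 53.4, 77.5 and 127, and 5 were called higher, against 6.72%, and 0 lower, against 10.3%, in BLEO-HPS1 against BLEO-WT (4 and 1 corrected). They were led by *Cspg4* at 6.07, 4.27, 33.1 and 17 CPM, *Des* at 6.56, 7.67, 9.42 and 26.5 and *Notch3* at 7.59, 11.5, 9.99 and 15.2, and *Cnn1* stayed under 1 CPM. Most single fibroblast markers were thus higher in BLEO-HPS1 alongside the fibrillar and beaded filament chains, while the fibroblast sum, led by *Fn1*, was not.

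Basement membrane chains were set beside endothelial and epithelial markers. The 13 endothelial markers summed to 1230.2, 1180.9, 1210.3 and 1699.2 CPM, with 1 called higher, against 6.72%, and 0 lower, against 10.3%, in BLEO-HPS1 against BLEO-WT (0 and 0 corrected), and *Vwf* led at 146, 131, 299 and 373, with *Pecam1* at 182, 172, 176 and 203 and *Cdh5* at 162, 160, 146 and 174. The 15 epithelial markers summed to 1685.8, 1276.7, 979 and 731 CPM, with 0 called higher and 2 lower, against 10.3% of all tested genes (4 lower corrected), led by *Sftpc* at 816, 538, 343 and 185, *Krt19* at 251, 203, 54.6 and 60.4 and *Hopx* at 76.0, 61.8, 126 and 112. The epithelial sum and *Col4a3* were both lowest in BLEO-HPS1, and *Col4a3* was highest in PBS-HPS1 where the epithelial sum, led by *Sftpc*, was highest in PBS-WT. Single epithelial markers differed in this. *Rtkn2*, at 3.73, 6.29, 3.8 and 2.83 CPM, and *Scgb1a1*, at 41.8, 55.8, 44.2 and 37.4, were highest in PBS-HPS1 and lowest in BLEO-HPS1, as *Col4a3* was. By contrast, *Ager*, at 58.4, 68.1, 93.8 and 96.1 CPM, *Krt8*, *Krt18* and *Foxj1* were highest in BLEO-HPS1. The remaining epithelial markers were highest in PBS-WT or BLEO-WT. The markers in this comparison were named after their values were seen, and the relation to *Col4a3* was not tested. Of 6 mesothelial markers, 5 were tested, and they summed to 264, 217, 68.7 and 72.8 CPM, with 0 called in either direction. *Krt19* is on both of these lists and led it, with *Upk3b* at 4.50, 5.93, 4.69 and 4.59 and *Msln* at 3.25, 3.63, 6.21 and 4.86, and *Wt1* stayed under 1 CPM.

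The lineage gate of the sort removed cells with CD3, CD11b, B220, Ly76, Ly6G or Ly6C, and the purity the study states for it was not analysed here. The 12 macrophage and monocyte markers that were used summed to 12953.6, 8815.4, 22562.1 and 22425.8 CPM, with 0 called higher and 1 lower, against 10.3%, in BLEO-HPS1 against BLEO-WT, led by *Lyz2* at 9427.5, 6083.3, 13144.6 and 12343.5, *Cd14* at 519, 516, 1913.5 and 1430.7 and *Csf1r* at 642, 379, 1346.6 and 1602.6. The 10 B and plasma cell markers without immunoglobulins summed to 376, 407, 385 and 673 CPM, with 4 called higher, against 6.72%, and 0 lower (7 and 0 corrected, with a median of 1.27), led by *Xbp1* at 250, 262, 254 and 324, *Cd79a* at 23.7, 30.2, 35.5 and 124 and *Cd79b* at 18, 17.5, 20.5 and 81.7. The macrophage sum, most of it *Lyz2*, was alike in both bleomycin libraries, but single markers differed in either direction. *C1qa* was at 1391.4 CPM in BLEO-WT and 2046.7 in BLEO-HPS1, and *Mrc1* at 702 and 266. How these markers relate to the collagen values was not tested.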

How the data were processed

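The count of reads on each Ensembl gene, as deposited by the authors without normalization, was used for the 4 libraries, made with a SMARTER mRNA kit. The aligner, the counting tool and the genome build are not given in the sources used here. Members were found by gene name and classed by collagen type. The members and lists were chosen with earlier results of these data known. Counts were scaled with TMM factors of edgeR 4.0.16 in R 4.3.3, and log2 ratios used a prior count of 2. Genes with at least 1 CPM in at least 1 library (14840) were tested. Transcript length (the longest annotated transcript) and GC content came from GENCODE M21, in which all 44 chains were found. The loess correction had a span of 0.3. Exact intervals used SciPy 1.17.1. Chains with at least 10 CPM in some library were given in every library, those of 1 to 10 CPM by their highest and lowest library, and the rest by reads. From each list the 3 genes highest in mean CPM and those under 1 CPM in every library were named. For the ILC2 markers, 1 gene and the sum over the list are not reported here. The alternatives were DESeq2 1.42.0 size factors, total counts, prior counts of 0.5 and 10, the GC and length correction, no filter, at least 10 reads in every library, a 4-fold threshold, other transcript lengths, and shares without the most abundant fibrillar chains or per kb.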

Additional observations from a re-analysis of the deposited data

Results flagged for a closer look

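*Col4a3* had genotype ratios of opposite sign in the bleomycin and PBS libraries. On the log2 scale they were -1.91 with bleomycin and 0.68 with PBS, and -1.36 and 0.43 once corrected for GC content and length. *Col4a4* also went opposite ways. Bleomycin against PBS gave -0.69 in *Hps1*-/- mice and 0.53 in wild type, and the genotype ratio was -0.49 with bleomycin and 0.73 with PBS. After the correction the first pair was 0.59 and 0.93 and the second 0.088 and 0.43, so neither pair had opposite signs any longer. For *Col11a2* the genotype ratio was -0.31 with bleomycin and 0.29 with PBS, and -0.74 and 0.10 after the correction. Each was singled out because its ratios had opposite signs with both counting intervals clear of 0. With 1 library per group, none of these differences was tested.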

How the results depend on the processing

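The causes of the changes below were not tested. Of 620 single-chain ratios under other scalings, prior counts and the GC and length correction, 581 kept their direction where called and their side of the 2-fold threshold, 19 fell below it, 20 passed it and 0 called ratios reversed. Total counts shifted the median of all genes from -0.0429 to -0.175 (BLEO-HPS1 to BLEO-WT), from -0.193 to 0.0513 (PBS-HPS1 to PBS-WT), from 0.0938 to -0.169 (BLEO-WT to PBS-WT) and from 0.25 to -0.389 (BLEO-HPS1 to PBS-HPS1). For BLEO-HPS1 against BLEO-WT, 3 chains were higher and 0 lower at 4-fold, and 1 was lower with a prior count of 10 and 5 with no filter. There 18 were higher with DESeq2 size factors and 14 with total counts or a prior count of 10, where *Col4a6* and *Col28a1* fell below the threshold. For PBS-HPS1 against PBS-WT, 5 were higher with DESeq2 size factors, 9 with total counts, 7 with no filter, 2 with a prior count of 10 or the GC and length correction, and 0 at 4-fold. For BLEO-WT against PBS-WT, 2 were higher and 0 lower at 4-fold, 0 lower with a prior count of 10 and 5 with no filter. For BLEO-HPS1 against PBS-HPS1, 10 were higher and 1 lower at 4-fold, and 6 were lower with total counts, 4 with the GC and length correction and 9 with no filter. In that comparison 13 were higher with total counts, where *Col4a1* and *Col4a2* were at 0.65 and 0.80, and 19 with the GC and length correction. The basement membrane median for BLEO-HPS1 against BLEO-WT was 1.03 with DESeq2 size factors. With total counts, the beaded median for PBS-HPS1 against PBS-WT was 1.02, that of basement membrane chains for bleomycin in *Hps1*-/- mice was 0.43, and the median differences of bleomycin ratios were 0.81 for fibrillar and 0.67 for beaded chains. With no filter these differences were 0.94 and 0.66, and the beaded median for BLEO-WT against PBS-WT was 0.77, with 1.25 for BLEO-HPS1 against PBS-HPS1 and 1.12 for BLEO-HPS1 against BLEO-WT, since 3 beaded chains of few reads then enter. The beaded difference was 0.97 with the GC and length correction. Without *Col1a1*, *Col1a2* and *Col3a1*, fibrillar chains held 10.1%, 10.2%, 10.5% and 13.1% of collagen reads in the 4 libraries as listed above, and basement membrane chains 64.3%, 58.9%, 53.6% and 45.2%. Per kb, fibrillar chains held 36.9%, 42.4% and 50.6% in PBS-WT, PBS-HPS1 and BLEO-WT, and basement membrane chains 42.6%, 35.2%, 27.4% and 15% in the 4 libraries. The *Col1a1* to *Col1a2* ratio was 1.59, 1.60, 2.12 and 2.29 with merged exons, and 0.798, 1.06 and 1.14 with coding lengths in PBS-HPS1, BLEO-WT and BLEO-HPS1. No paired analysis was possible because each group has 1 library. Depth limits chains under 1 CPM, and the other limits are the lack of replicates, the unequal cell numbers and the GC dependence of the ratios.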
